A study of Rattus norvegicus with 10 samples.

Results

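Zfp-named zinc finger genes were described in the arcuate nucleus of the hypothalamus (ARC) of rat dams. Members were chosen by name: protein-coding genes whose symbol is Zfp followed by digits alone, which gave 207 of the 12383 protein-coding genes, or 1.67%, among 12828 genes in the table analysed. These genes had passed the authors' filter, and the paper describes one on reads per gene. RefSeq (GRCr8) lists 283 protein-coding genes with such names. All shares, medians and runs below thus hold for the genes measured and not for the whole family. The family was selected on a measured value as well, since it was put forward because Zfp667 ranked high in the authors' comparison of the diets, whose statistics are not used here. Most proteins with such names carry zinc fingers, short loops folded around a zinc ion that can grip DNA, and some grip RNA or other proteins instead. Many also carry a KRAB domain, which recruits the corepressor Trim28 and with it the enzymes that place the silencing mark H3K9 methylation. KRAB zinc finger genes are known for lying in clusters that grew by duplication and for silencing transposable elements.

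The dams were Wistar rats sampled at parturition after a pregnancy diet with folate at 5 times the recommended level, given as folic acid (5X-FA, 5 dams) or as 5-methyltetrahydrofolic acid (5X-MTHF, 5 dams). The ARC was cut by hand from frozen brain and its poly-A RNA sequenced in bulk, so fewer cells of a type and less RNA per cell cannot be told apart. The value used is the authors' average log2 CPM for each gene, with no spread between dams. CPM brings the reads of each library to a common total. The average is named for no sample or group and is taken here to cover all 10 libraries. The diets are not compared here, because the columns of per-library values match no sample label, and the depth of each library is not analysed here. CPM is not divided by transcript length, so it gives the reads a gene drew and not an order of transcript abundance.

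The tissue label was checked against marker genes. Of 12 arcuate markers 10 were measured, with an average log2 CPM of 6.02 for Cartpt, 5.20 for Th, 4.67 for Pomc and 4.34 for Tac3. Isl1 followed with 16.0 CPM. The others were lower, at 2.45 for Tbx3, 2.21 for Prlr, 1.42 for Agrp, 1.02 for Ghrh and 0.08 for Kiss1. The arcuate median was 3.22, and 2 of the 10 lay above the protein-coding median of 5.02. Npy and Nr5a2 are not analysed here. All 8 striatal markers were measured too, with a median of 5.67 and 5 above the protein-coding median, up to 7.68 for Penk. Of 8 markers of cortex and hippocampus 4 were measured, Camk2a at 8.44, Slc17a7 at 7.17, Tbr1 at 3.34 and Neurod6 at 2.40. All 6 thalamic markers were measured, with a median of 5.04, from 2.34 for Rora to 8.09 for Slc17a6. By cell type, the median was 9.28 for 6 neuronal markers, 9.68 for 6 of astrocytes and 9.54 for 6 of oligodendrocytes. It was 6.32 for 4 markers of oligodendrocyte precursors, 6.03 for 4 of 6 endothelial markers and 4.32 for 6 of microglia. Of 6 markers of ependyma and tanycytes, the glia lining the ventricle beside the ARC, 3 were measured, Crym at 5.53, Ccdc153 at 3.10 and Rax at 0.08. Transcripts of neurons, glia and genes known from other brain regions were thus all present, some of which the hypothalamus also makes. How far tissue beyond the ARC entered the samples was not tested, and the cells that made each Zfp transcript were not resolved.

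The Zfp-named genes measured mostly drew fewer reads than the median protein-coding gene of the table. Their median average log2 CPM was 4.16, or 17.9 CPM, beside 5.02, or 32.3 CPM, over all protein-coding genes. Of the 207 members, 155 (74.9%) lay below that protein-coding median and 52 above it. The quartiles of the family were 3.31 and 5.02, against 3.76 and 6.22 over protein-coding genes. At the extremes, 18 members fell in the lowest 10% of protein-coding genes and 4 in the highest 10%. The 10th percentile of the members, 2.71, lay slightly above the 2.64 of protein-coding genes, so members did not pile up at the bottom. Their 90th percentile was 6.01, against 7.32. Together the members took 6135 CPM, or 0.612% of the CPM summed over all genes of the table from these averages. The 10 leading members took 27.4% of the members' own 6135 CPM. These are descriptions of a list picked with results in view, and no test was made of them.

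**Figure D1:**
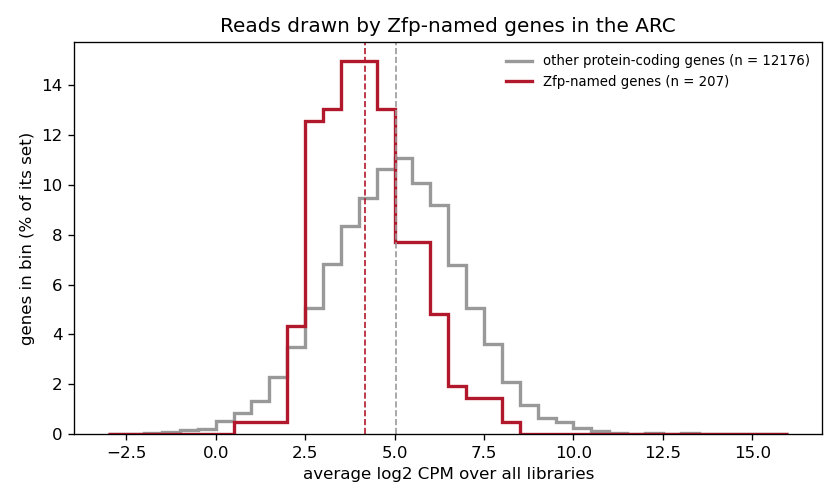
Share of genes (percent of each set) by average log2 CPM, in bins of 0.5. Red marks the 207 Zfp-named genes and grey the other 12176 protein-coding genes. Dashed lines mark the medians, 4.16 and 5.04.

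The 10 members that drew most reads include proteins with different known roles. Zfp106, an RNA-binding protein needed by motor neurons and muscle, drew the most, with an average log2 CPM of 8.33. Zfp91, an E3 ubiquitin ligase, followed at 7.89, and Zfp706 at 7.65. Zfp638, which takes part in silencing unintegrated retroviral DNA, stood at 7.60. Zfp365, a centrosomal protein of neurons that binds DISC1, stood at 7.28. The next members were Zfp266 at 7.03, Zfp180 at 7.02, Zfp207 at 6.75, Zfp810 at 6.70 and Zfp483 at 6.65. Zfp207 is the mitotic Bub3 partner also known as BuGZ.

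At the other end, Zfp37 had an average log2 CPM of 0.79 and Zfp185, a LIM-domain protein rather than a classical zinc finger factor, 1.02. Zfp866 stood at 1.77 and Zfp78 at 2.05, and Zfp524 lay between them with 4.01 CPM. The span from the lowest to the highest member was 187-fold in CPM. Gene span, introns included, and reads drawn had a Spearman correlation across genes of 0.41 over 207 members and 0.25 over 12383 protein-coding genes. Genes are not independent replicates, and transcript lengths are not used here.

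Zfp667 (ENSRNOG00000033906) lies at chr1:71270107-71290337 in Rnor_6.0. Its average log2 CPM was 5.40, or 42.2 CPM, at the 58.5 percentile of protein-coding genes, and 39 other members drew more reads. It sits in a run of 6 members with no other protein-coding gene of the table between them. In order of position, the average log2 CPM of that run was 3.69 for Zfp28, 2.05 for Zfp78, 3.09 for Zfp583, 5.40 for Zfp667, 6.33 for Zfp444 and 3.38 for Zfp787. Zfp667 and Zfp444 thus stood above the protein-coding median, and their 4 neighbours below it. Except for Zfp667 and Zfp78, these neighbours were chosen after their values were seen.

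The family was unevenly spread over the genome. Chromosome 1 held 50 members, or 24.2% of the family, beside 12.2% of protein-coding genes. Members made up 3.30% of the protein-coding genes measured on chromosome 1, 3.03% on chromosome 18 and 2.63% on chromosome 19, but 0.277% on chromosome 13, where a single member was found. All 21 chromosomes with a number or X held at least 1 member.

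**Figure D2:**
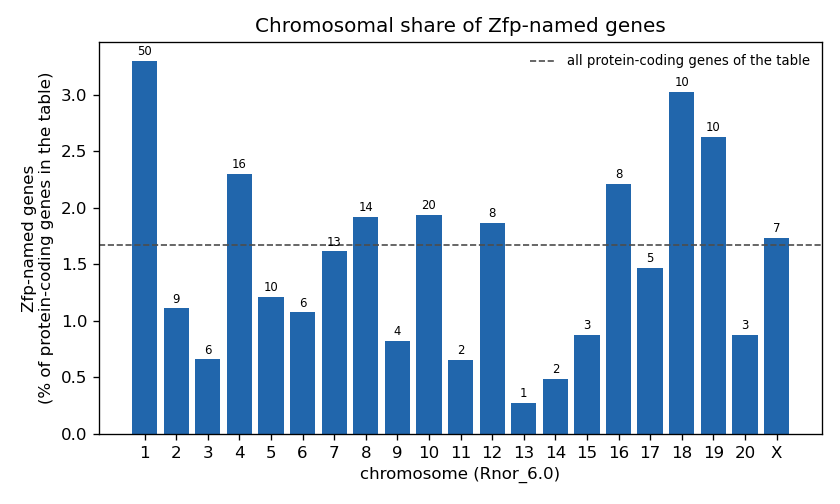
Zfp-named genes as a percent of the protein-coding genes of the table on each chromosome (Rnor_6.0), with the number of members above each bar. The dashed line is the share over all chromosomes, 1.67%, and chromosome 1 stands highest at 3.30%.

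Neighbouring members formed 25 runs, which held 72 members (34.8%). Genes missing from the table may lie between them. The longest run had 7 members on chromosome 4, from 77495663 to 77747070 in Rnor_6.0. Its average log2 CPM values were 3.10 for Zfp786, 4.26 for Zfp398, 4.52 for Zfp282, 3.19 for Zfp212, 3.28 for Zfp956, 4.75 for Zfp777 and 4.69 for Zfp746, the parkin substrate also named PARIS. All 7 lay below the protein-coding median of 5.02. A run of 6 on chromosome 8 stayed between 3.91 and 4.54 except for Zfp266, at 7.03. Adjacent members differed by a median of 1.12 in average log2 CPM over 47 neighbouring pairs, and any 2 members by a median of 1.21 over all 21321 pairs. Neighbouring protein-coding genes differed by a median of 1.69 over 12353 pairs, but their levels also spread more, with an SD across genes of 1.86 against 1.30 for the members. Members in runs had a median of 4.07 and the 135 others 4.21.

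**Figure D3:**
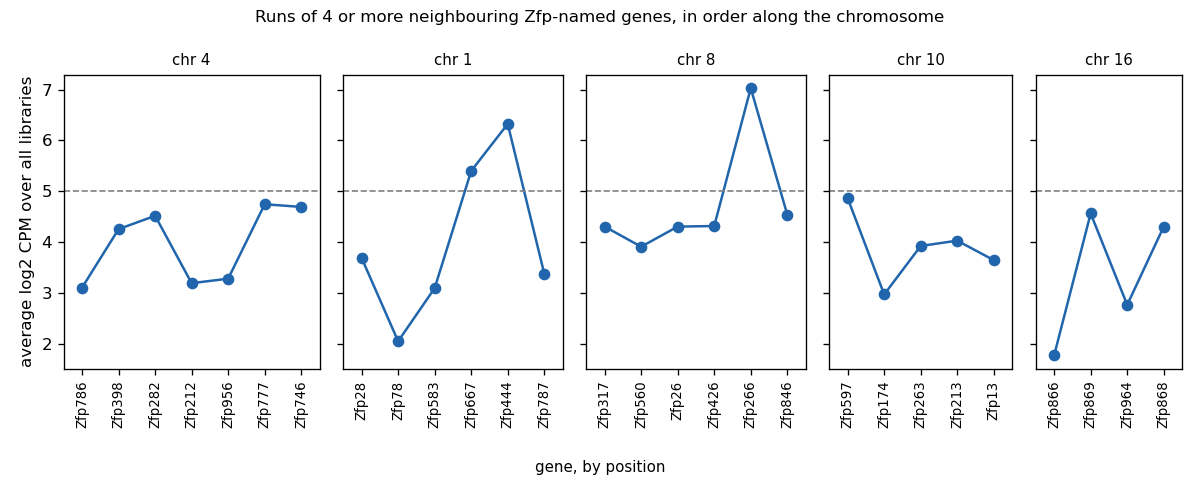
Average log2 CPM of each gene in the 5 runs of at least 4 neighbouring Zfp-named genes, in order along the chromosome. The dashed line is the protein-coding median, 5.02. Zfp667 and Zfp444 on chromosome 1 and Zfp266 on chromosome 8 lie above it.

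Duplicated members can resemble each other closely, so reads may have been lost or split between them, and levels within runs are uncertain for that reason. In addition, 14 members overlap another gene of the table in position, Zfp810 and Zfp57 among them, which adds to the uncertainty of their values.

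Corepressor genes of the KRAB pathway mostly lay above the protein-coding median in reads drawn. Of 34 listed genes for the Trim28 complex, its chromatin partners and H3K9 methylation, 30 were measured, with a median average log2 CPM of 5.90, and 27 lay above the protein-coding median. Trim28 stood at 7.08, Setdb1, the H3K9 methyltransferase it recruits, at 5.94, and the nucleosome remodellers Chd3 and Chd4 at 9.10 and 8.27. The lowest were Mphosph8 at 3.13 and Suv39h2 at 3.28.

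Other families of zinc finger genes gave medians on both sides of the members' 4.16. Among the 8 families with at least 5 genes, medians ran from 3.24 for 8 Zscan genes to 5.04 for 17 Zc3h genes, which encode mostly RNA-binding proteins. The 35 Zbtb genes had a median of 4.05, the 13 Klf genes 4.05 and the 21 Zdhhc genes, palmitoyltransferases named for another zinc-binding domain, 4.92. The median was 4.14 for Prdm, 4.45 for Zkscan and 4.72 for Sp genes. Of these 8 families all but Zc3h had a median below the protein-coding 5.02, as the members did.

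Zinc finger genes tied to genomic imprinting were measured for 6 of 8 listed names. Zfp57 and Zfp445, which protect imprints from erasure in the early embryo, had an average log2 CPM of 4.48 and 5.79. The imprinted gene Zfp597 stood at 4.87. Outside the naming rule, Zim1 stood at 5.06, Plagl1 at 5.58 and the imprinted gene Peg3 at 11.38, above every member. Zfp568 and Zfp264 are not analysed here.

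All 9 listed names tied to RNA or the ribosome were measured, from 2.55 to 8.33 with a median of 5.53, and Zfp106, Zfp638 and Zfp207, given above, were the highest. Zfp36, the mRNA decay factor tristetraprolin, stood at an average log2 CPM of 2.55, and Zfp593, a factor in assembly of the large ribosomal subunit, at 3.11. Zfp622, which acts in the same assembly, stood at 4.60 and Zfp598, the ubiquitin ligase that senses collided ribosomes, at 5.53. Zfp385b and Zfp385a, outside the naming rule, stood at 4.56 and 6.30. On the X chromosome 7 members were measured, from 1.02 for Zfp185 through 2.51 for Zfp300, 3.60 for Zfp92, 4.23 for Zfp711, 4.59 for Zfp449 and 4.73 for Zfp182 to 5.86 for Zfp275. Zfp711 is a gene of X-linked intellectual disability.

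Promoter windows from RefSeq (GRCr8), running from 250 bases before to 50 bases after the start, were matched by symbol to 170 members (82.1%). For 169 of them the window lay on the chromosome that the table gives. For Zfp758, named for this reason after its values were seen, the table gives chromosome 11 and the window chromosome 1, so its window may belong to another locus. This description was chosen after the levels were seen. The members' windows held a median of 18 CpG pairs, from 1 to 43, and a median GC content of 58.3%. Over all 19005 RefSeq protein-coding genes with a window the median was 12 CpG pairs. The other protein-coding genes of the table had a median of 21, on the opposite side of the members, but a window was found for 78.3% of them, under the 80% required, so that comparison is void. No direction is read from either. Zfp667 had 30 CpG pairs and a GC content of 69.7%.

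The stretches below show 120 bases before the start of Zfp667 and of the members with the fewest and the most CpG pairs, 5′ to 3′ on the gene's strand, with CpG pairs in capitals. Zfp182 shares the lowest count, 1, with Zfp467 and Zfp62, and Zfp521 has the highest, 43. Zfp467, Zfp62 and Zfp521 were chosen after their values were seen.
Zfp667 (chr1:76655134-76655253, GRCr8, minus strand): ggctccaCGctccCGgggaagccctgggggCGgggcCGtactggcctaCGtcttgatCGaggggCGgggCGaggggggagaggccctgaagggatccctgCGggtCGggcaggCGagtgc
Zfp182 (chrX:3480871-3480990, GRCr8, plus strand): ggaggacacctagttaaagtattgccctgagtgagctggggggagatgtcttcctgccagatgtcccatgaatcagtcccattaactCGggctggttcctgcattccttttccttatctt
Zfp521 (chr18:5343055-5343174, GRCr8, minus strand): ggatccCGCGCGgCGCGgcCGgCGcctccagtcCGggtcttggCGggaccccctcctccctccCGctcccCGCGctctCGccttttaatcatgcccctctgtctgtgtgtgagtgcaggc

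CpG pairs and reads drawn were weakly related across members, with a Spearman correlation of 0.20 over 170 genes, which are not independent replicates and share the same libraries. The 42 members with at most 10 pairs had a median average log2 CPM of 3.70, and the 20 with at least 30 pairs 4.68.

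**Figure D4:**
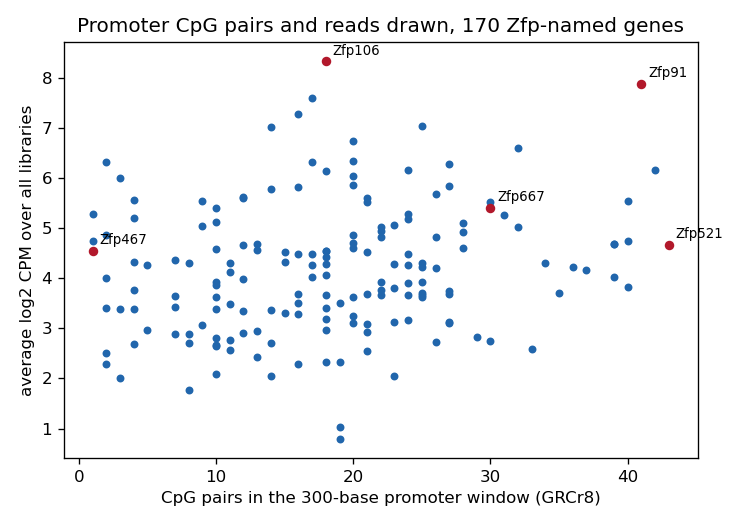
Average log2 CPM against the number of CpG pairs in the 300-base promoter window (RefSeq, GRCr8), 1 point per gene for 170 Zfp-named genes. The cloud is wide, with a Spearman correlation of 0.20.

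Short motifs were searched on both strands of the windows. TATAAA was found in 9.41% of the 170 members, in 13.1% of all 19005 windows and in 6.30% of the windows of the other protein-coding genes of the table. GGGCGG was found in 50.6%, 43.1% and 63.7% of these sets, CACGTG in 7.65%, 7.27% and 9.59%, and TGACGTCA in 2.94%, 2.22% and 3.18%. For these 4 motifs the members lay between both backgrounds, so the direction turns with the background. CCAAT was found in 41.8%, 38.4% and 37.4%, and AAGATGGCG in 5.29%, 2.29% and 3.75%. As above, comparison with the genes of the table is void, and no direction is read. CTACAATTC, letters from the element type that the zinc finger activator Zfp143 binds, was found in 4 members (2.35%), in 0.510% of all windows and in 0.746% of those of the table. This motif and the members that hold it were chosen after the data were seen, a longer form of the same element having been looked at first, so its shares are those of a picked form. A match is not a binding site. The 4 stretches of 60 bases are shown 5′ to 3′ on the gene's strand, with the match on either strand in capitals.
Zfp1 (chr19:56509270-56509329, GRCr8, plus strand): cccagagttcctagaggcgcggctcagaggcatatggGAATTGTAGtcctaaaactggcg
Zfp180 (chr1:88780281-88780340, GRCr8, plus strand): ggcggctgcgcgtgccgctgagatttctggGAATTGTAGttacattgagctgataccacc
Zfp458 (chr2:86401387-86401446, GRCr8, plus strand): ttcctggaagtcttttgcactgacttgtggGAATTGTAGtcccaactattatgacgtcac
Zfp692 (chr10:42988870-42988929, GRCr8, plus strand): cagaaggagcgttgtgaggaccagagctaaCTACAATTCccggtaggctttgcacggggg
The match began 23 bases before the start in Zfp1, 31 in Zfp180, 97 in Zfp458 and 46 in Zfp692. Their average log2 CPM was 3.07, 7.02, 3.38 and 5.63, so the 4 genes drew very different numbers of reads. Zfp143 itself, likewise chosen afterwards, stood at 3.68.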

How the data were processed

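Poly-A RNA of the ARC of 10 dams was sequenced. The submitters' processing notes name Trim Galore 0.5.0, FastQC, STAR 2.6.0c, HTSeq 0.6.1p2, R 3.6.1, and DESeq2 and DESeq, with the build Rnor_6.0. Which tool the authors used for the average log2 CPM is not given in the sources used here. The authors deposited, for each gene, an average log2 CPM that is named for no sample or group. This log2 value, taken to cover all libraries, is the measurement used. The table also holds 4 columns of the authors' comparison of the diets (the size of the difference, its test statistic, and raw and adjusted significance), which were not used, and 10 per-library columns that match no sample label and entered no step. The planned diet tests assumed values per dam and were therefore not made, and depth per library is not analysed here.

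Members are protein-coding genes named Zfp plus digits. The members and lists were chosen with earlier results of these data known. Named genes are Zfp667, the 10 highest and 5 lowest members, the longest run and genes of the imprint, RNA-binding, X-chromosome, marker and corepressor lists. The corepressor genes named include the highest and lowest of their list. Other named genes are marked as chosen after their values were seen. A run is a set of members with 0 other protein-coding genes of the table between them. RefSeq symbols matched 201 members, and the first listed start window was used. Medians, counts and Spearman correlations were computed with Python 3.11.15, numpy 2.4.6, pandas 2.3.3 and scipy 1.17.1, and figures with matplotlib 3.10.9. The run step was tested on simulated data with known runs. Simulated checks of the CpG and motif steps could reveal missed matches but not false ones.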

Additional observations from a re-analysis of the deposited data

How the results depend on the processing

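The median level and the share of members below the protein-coding median moved little when names with a letter suffix were added (4.21 and 74.1%) and when members under the 10th percentile of all genes were left out (4.26 and 73.3%). The share was 73.9% against all genes, and 1 row per symbol left the median at 4.16. With 2 intervening genes allowed, 105 members lay in runs and the longest had 8. Chosen after seeing the data, leaving out members that overlap another gene gave a median of 4.17, and the median was 18 CpG pairs with every start window and also without Zfp758.

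The difference in median CpG pairs between members and background, also examined after seeing the data, reversed with the background. It was 6 against all RefSeq protein-coding genes and -3 against the other protein-coding genes of the table. The share of windows with a motif, members minus background in percentage points, reversed between the same backgrounds for TATAAA (-3.69 and 3.11), GGGCGG (7.46 and -13.1), CACGTG (0.381 and -1.94) and TGACGTCA (0.721 and -0.241). The comparison with the genes of the table is void, since 78.3% of them had a window, so these signs are given as values and no direction is read. The cause was not tested.

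No paired analysis was possible because the result comes from no test and the values used are averages per gene, taken to cover all libraries. For the same reason the planned diet fits with another count test, pseudocount, filter, scaling or replicate block, and those without 1 dam, were not run. The protein pattern was not run because protein sequences are not used here. The per-library columns match no sample label and are not used here, so no spread or depth is given.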
